A study of Mus musculus with 14 samples.

Results

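Promoter-capture Hi-C (PCHi-C) contacts of the promoters of *Meis1*, *Meis2*, *Meis3*, *Pbx2* and *Pbx3* were followed over 7 mouse cranial neural crest cell (CNCC) populations. In PCHi-C, cross-linked chromatin is cut with HindIII, neighbouring ends are ligated, and ligation products with a promoter fragment (the bait) are captured. A bait was taken for these genes when a start site of a GENCODE transcript of the gene lay on it. This rule found 7 of the 22171 baits, with 558 of the 1344043 distinct listed pairs and 1159 of the 2655481 listings over the 14 libraries. *Meis1* had a main bait with 7 start sites (mm10, chr11:19017037-19021316) and a second bait inside the gene with 1 start site (chr11:19011027-19015228), which also holds a start site of *Gm16141*. *Meis2* had 1 bait with 10 start sites (chr2:116056960-116067701), shared with *2700033N17Rik* and *G630016G05Rik*. *Meis3* had 1 bait with 8 start sites (chr7:16174962-16182005), and *Pbx3* had 1 with 9 (chr2:34370409-34383842). *Pbx2* had a main bait with 3 start sites (chr17:34590351-34592894) and a second bait with 1, shared with *Ager* (chr17:34594062-34598396).

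Meis and Pbx proteins are homeodomain proteins of the TALE class, named for a loop extension of a few residues. They bind DNA with each other and with Hox proteins, and so help to set which genes a Hox protein occupies. In the cranial neural crest they act with Hoxa2, the Hox protein that gives the second pharyngeal arch and the external ear (pinna) their identity, and the first arch and the frontonasal process carry no Hox expression.

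Each population was measured in 2 libraries. The wild-type populations were Wnt1::Cre;ROSA-RFP CNCCs, sorted for RFP, from 4 E10.5 tissues, namely the frontonasal process (FNP), the maxillary process (Mx), the mandibular process (Md) and the second arch (PA2), and from E12.5 pinna and E14.5 pinna. Wnt1 drives Cre in neural crest progenitors, so that RFP marks their descendants. The knockout (KO) population was E10.5 PA2 of Hoxa2EGFP/EGFP embryos, in which EGFP replaces *Hoxa2*, sorted for EGFP. Genotype and sort marker differ together between KO and wild-type PA2 and cannot be told apart, and all lines had a mixed C57Bl/6J;CD1 background. Cells of embryos of both sexes were pooled, and E14.5 tissue was dissociated with papain while the younger tissue was treated with trypsin.

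Each deposited list holds pairs of a bait and another fragment with their CHiCAGO score, which is a negative natural log p-value, weighted by distance and taken against that library's own background, and no score below 5. A pair that a list lacks was given 0, which stands for any score under 5, so a score of 0 does not show that a contact was absent. Read counts were not at hand and the depth is unknown. The number of listed pairs ran from 119109 to 499285 (median 152892), and was lowest in the KO libraries (119109 and 127738), against 144590 and 149662 in wild-type PA2. In Md replicate 1 and E12.5 pinna replicate 2, which have merged runs, 46.46% and 62.7% of pairs joined different chromosomes, against 2.513% to 5.389% elsewhere, and so strength was summed over pairs of 1 chromosome. The lists hold no expression, so the loss of *Hoxa2* and the cell type could not be checked by marker levels. The bait of *Wnt1*, whose promoter drives Cre, listed 209 to 425 fragments of chromosome 11 (median 309) in each of the 12 wild-type libraries and 0 in both KO libraries. The median position of these fragments in a library was 6.419 to 6.68 Mb.

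Sequence is shown for 3 of the contacts described, namely the gene end of *Meis1*, the pinna cluster of *Meis2*, and the *Meis2* super-enhancer, which was unlisted in KO at this fragment but did not pass there. The fragment from beyond the end of *Meis1* is whole, and the others are their first 300 bases, all on the plus strand of mm10 and read from the reference genome. Capitals at the start mark the end left by HindIII, and capitals inside a sequence mark a match to TGATTNAT, a motif of Pbx-Hox pairs. The first lies at chr11:18873311-18873583, in the lncRNA gene *8430419K02Rik*, 6234 bp from *Meis1*. The second lies at chr2:115527050-115527349, in the lncRNA gene *3110099E03Rik*. The third lies at chr2:114622007-114622306, in *Dph6* and within a super-enhancer of the study's list.
Meis1 gene-end fragment: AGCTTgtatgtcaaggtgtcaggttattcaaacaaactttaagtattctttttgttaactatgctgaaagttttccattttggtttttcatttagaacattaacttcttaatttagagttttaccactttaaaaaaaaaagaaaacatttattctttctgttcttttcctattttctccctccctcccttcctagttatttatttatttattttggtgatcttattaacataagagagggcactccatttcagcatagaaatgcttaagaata
Meis2 pinna fragment: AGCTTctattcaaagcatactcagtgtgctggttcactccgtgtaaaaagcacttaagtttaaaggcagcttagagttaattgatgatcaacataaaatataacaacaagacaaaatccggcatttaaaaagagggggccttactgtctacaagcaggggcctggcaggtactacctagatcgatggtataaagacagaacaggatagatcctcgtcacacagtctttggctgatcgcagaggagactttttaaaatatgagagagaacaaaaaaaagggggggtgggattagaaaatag
Meis2 super-enhancer fragment: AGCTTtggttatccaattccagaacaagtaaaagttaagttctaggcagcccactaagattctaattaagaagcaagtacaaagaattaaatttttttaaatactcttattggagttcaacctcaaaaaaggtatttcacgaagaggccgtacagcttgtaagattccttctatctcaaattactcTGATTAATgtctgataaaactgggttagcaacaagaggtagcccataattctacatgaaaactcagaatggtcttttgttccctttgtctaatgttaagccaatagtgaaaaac
Neither TGATTNAT nor TGACAG, the Meis core motif, was found on either strand of the first and second sequence, and the third held 1 TGATTNAT match and 0 TGACAG matches. These motifs do not contain each other. Among 1484 listed fragments of 250 to 300 bases on chromosomes 2, 7, 11 and 17, 5.26% held TGATTNAT and 17.7% held TGACAG. The RefSeq promoter table (mm10) held 4 of the 5 genes (*Meis1*, *Meis2*, *Meis3* and *Pbx2*), and neither motif was in these promoters of 300 bases, against 3.22% and 19.2% of 32851 promoters.

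The baits ranged from among the more contacted of the genome to poorly contacted. The second *Meis1* bait had 259 listings on its own chromosome over the 14 libraries and the main bait had 234, more than 89.79% and 88.09% of all baits, whose median was 62. *Meis2* had 164, *Meis3* 129, the *Pbx2* baits 95 and 75, and *Pbx3* 28, which put *Pbx3* at the 22.72 percentile. The genes also differed in reach. Median distance from bait to contact was 750.7 kb and 751.8 kb for the *Meis1* baits and 1229 kb for *Meis2*, and 66.46% of the *Meis2* listings lay over 1000 kb away. For *Pbx2* the medians were 458.2 kb and 474.7 kb. *Meis2* reached almost only downstream, on the side of its gene body, with 56 of 58 fragments. No listed pair joined a bait of one of these genes to a bait of another. The 2 *Meis1* baits shared 48 fragments (73.85% of the main and 68.57% of the second bait's fragments), and the *Pbx2* baits shared 17 (41.46% and 48.57%), so their values are not independent.

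**Figure D1:**
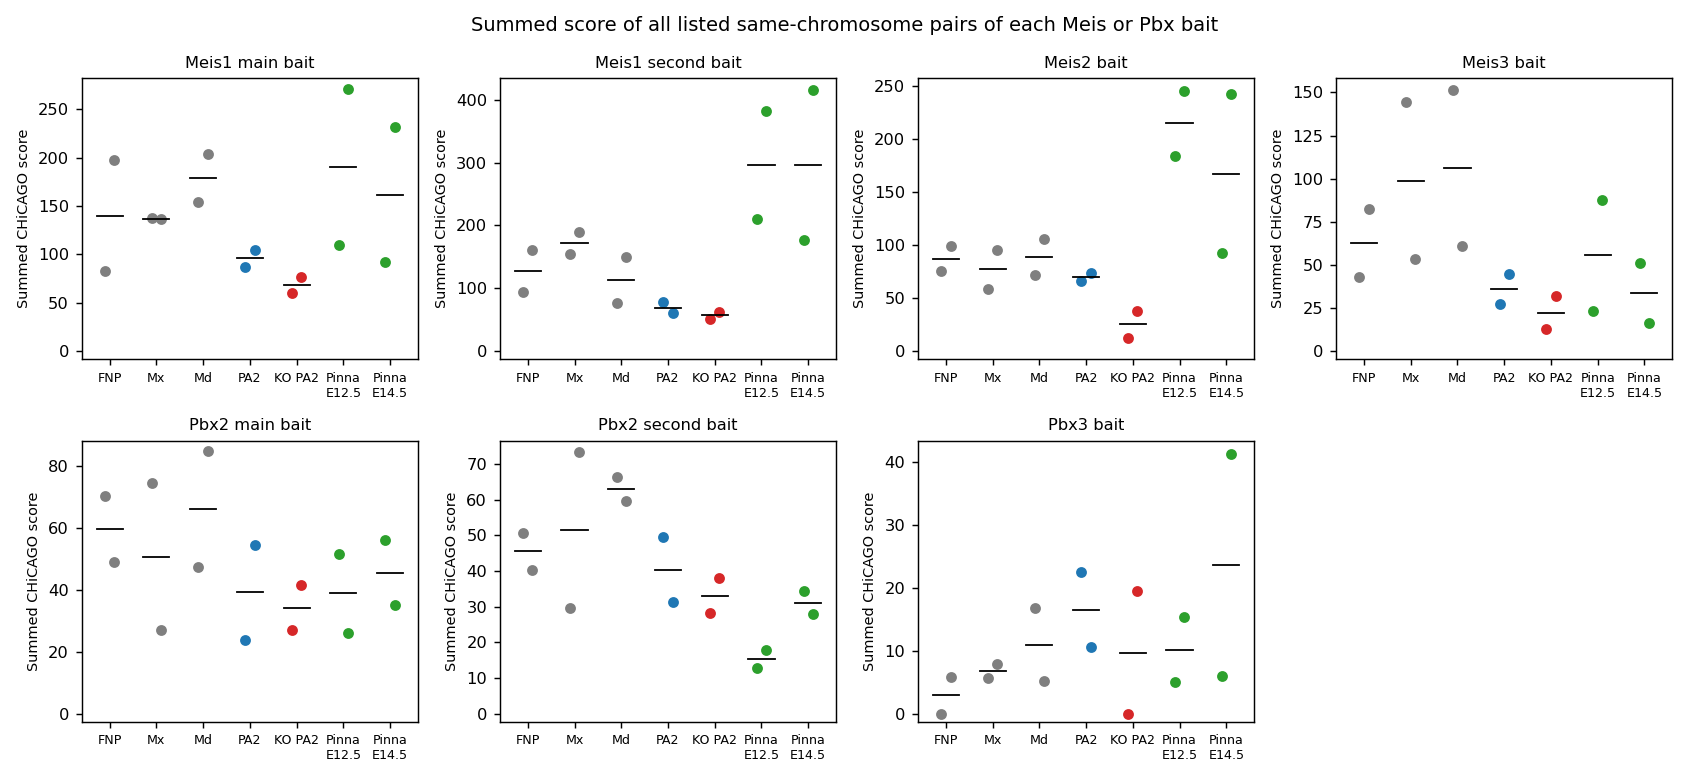
Summed CHiCAGO score of all listed same-chromosome pairs of each bait (y axis, own scale in each panel) by population (x axis). Points are libraries and bars are means of the 2 libraries. The pinna means of *Meis2* (215 and 167.7) and of the second *Meis1* bait (296.6 at both stages) lie above those of all E10.5 populations, and KO PA2 has the lowest mean for both *Meis1* baits, *Meis2*, *Meis3* and the main *Pbx2* bait.

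The total strength of a promoter, its summed score over its own chromosome, was compared across all baits with limma on log2(summed score + 5), each library centred on its median. One of the 7 baits differed between E12.5 pinna and E10.5 PA2, and none passed in the other comparisons. The second *Meis1* bait had summed scores of 60.6 and 78.13 in PA2, and 210.3 and 382.8 in E12.5 pinna. The pinna values did not overlap those of PA2, and the fitted log2 difference was 1.70 (SE 0.404, limma adjusted p = 0.044), with 0.655% of all 21991 baits called. This call was lost with scores of 10 or more only (adjusted p = 0.104), with the number of listed pairs in place of the score (0.158) and without both libraries with merged runs (0.0915). It was lost too when PA2 replicate 2 (adjusted p = 0.34), PA2 replicate 1 (0.176) or E12.5 pinna replicate 2 (0.158) was left out, and also without either FNP, Mx or KO library (0.0567 to 0.0683). *Meis2* had 66.67 and 73.77 in PA2 and 184.2 and 245.8 in E12.5 pinna, a log2 difference of 1.26 that did not pass (SE 0.456, limma adjusted p = 0.23). From E12.5 to E14.5 the 7 baits gave 0 calls by limma and 0 at an unadjusted p under 0.05, with 0.132% of all baits called and 8.47% under that unadjusted p.

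Between *Hoxa2*-expressing (PA2 and both pinna stages) and *Hox*-negative populations (FNP, Mx and Md), limma called 0 of the 7 baits, with 0.863% of all 21889 called, and 3 had an unadjusted p under 0.05, as had 14.1% of all baits. These were *Meis2* (log2 difference 0.68, SE 0.283, adjusted p = 0.264), *Meis3* (-0.99, SE 0.338, adjusted p = 0.155) and the second *Pbx2* bait (-0.77, SE 0.341, adjusted p = 0.297). At E10.5 alone, PA2 against the *Hox*-negative populations gave 0 calls among the 7 and 0% among all 21991 baits, with 1 bait, the second of *Meis1*, under an unadjusted p of 0.05 (-0.70, SE 0.33, adjusted p = 0.85), against 5.88% of all baits.

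Contacts of *Meis1*, which codes for a cofactor of Hoxa2 in the arches, fell into a few recurrent clusters. The steadiest lay upstream in a stretch without genes, 736.9 to 750.7 kb from the main bait (chr11:19752507-19773304, 5 listed fragments), with *Spred2* as the nearest protein-coding gene. The fragments starting at 19762589 and 19763315 were listed with the main bait in all 14 libraries, the only such pairs of that bait. The fragment at 19763315 scored between 7.16 and 16.84. A far cluster downstream (chr11:17456655-17463782) was listed with the second bait in all 14 libraries and with the main bait in 11. With the second bait the upstream fragment at 19762589 was listed in 13 libraries, at 5.46 to 15.59. The far cluster's pair at 17460351 to 17460789 lay 1559 kb from the main bait and was listed in 7 libraries.

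**Figure D2:**
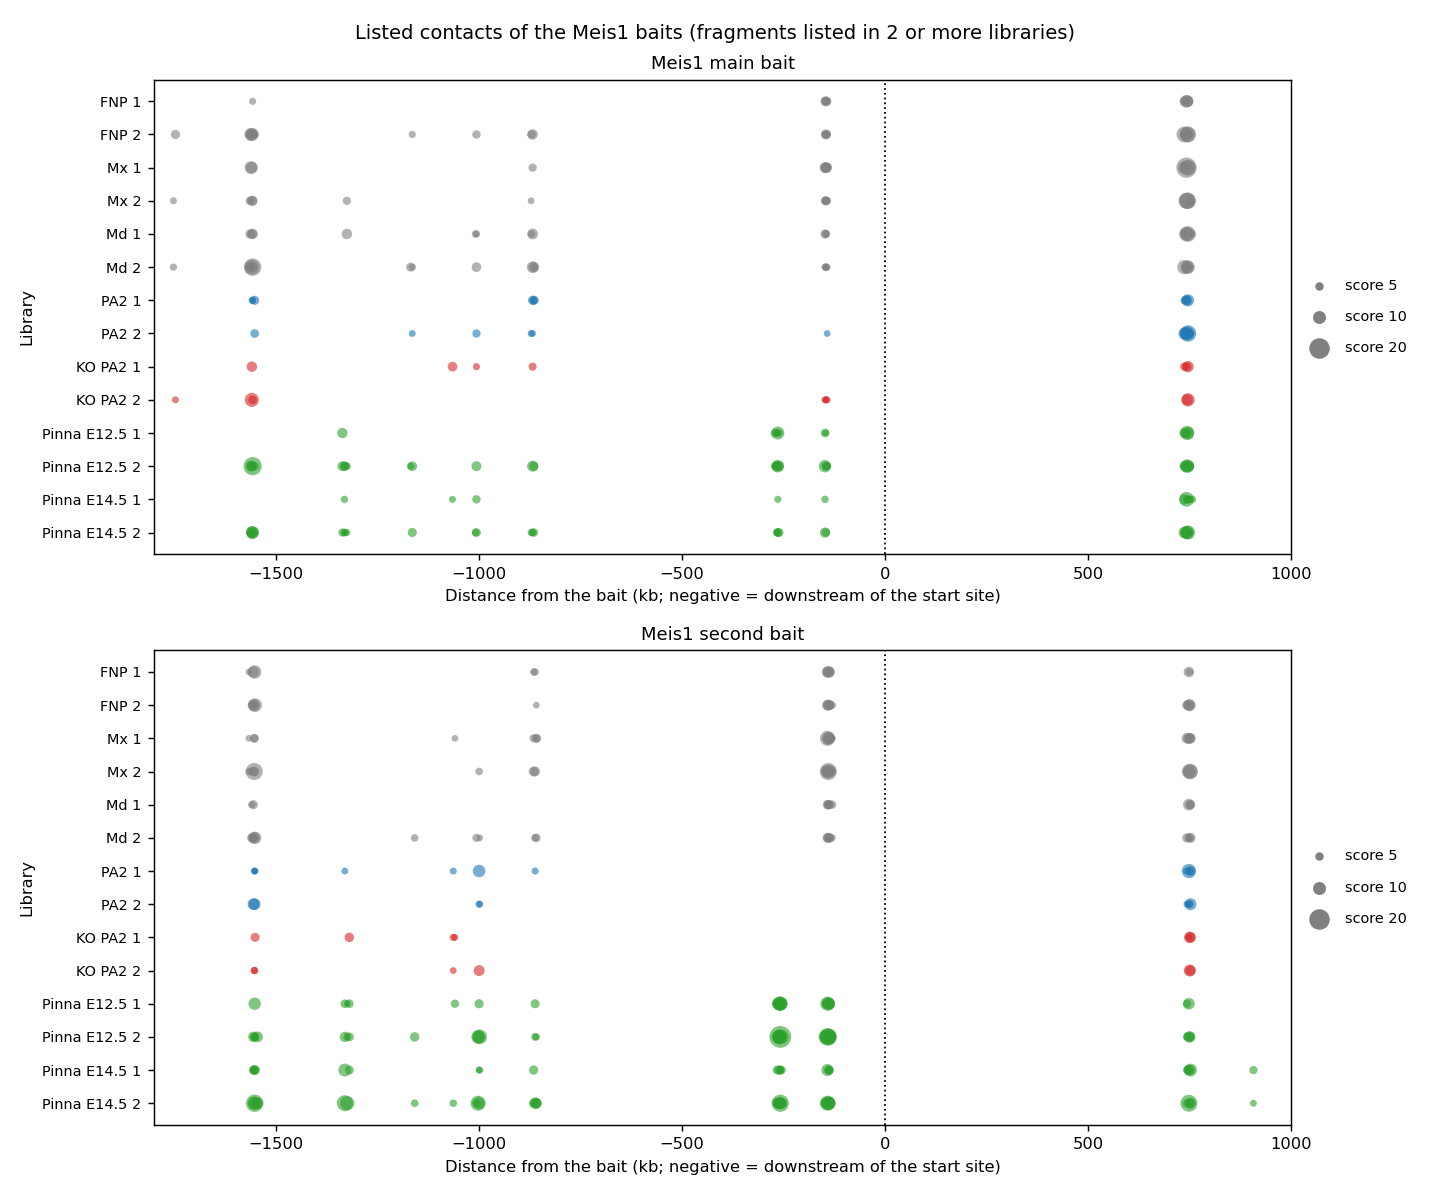
Listed contacts of the main (top) and second (bottom) *Meis1* bait, with distance from the bait in kb on the x axis and the 14 libraries on the y axis. Each point is a fragment listed in 2 or more libraries and its area grows with the score. The clusters about 1555 kb downstream and 750 kb upstream recur in most libraries, the cluster next to the gene end is missing from PA2 and KO PA2 with the second bait, and that 255 to 266 kb downstream appears in pinna only.

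The second *Meis1* bait was listed with fragments just beyond the far end of its own gene in every population except E10.5 PA2, wild-type and KO. This cluster (chr11:18869090-18878879) held 4 fragments, 136.6 to 141.9 kb from the bait, and overlapped *8430419K02Rik* and a super-enhancer of the study's list. Its summed score was 39.62 and 36.4 in FNP, 46.85 and 54.01 in Mx, and 30.81 and 32.55 in Md. It was 0 in both PA2 and both KO PA2 libraries. It was 46.24 and 62.51 in E12.5 pinna and 31.49 and 51.91 in E14.5 pinna. Its 100 kb window held 8 listed fragments, and the cluster was set by those listed in at least 10 libraries. All 4 fragments of the cluster were listed in each of the 10 libraries outside E10.5 PA2, which follows in part from that choice. The printed *Meis1* fragment was one of them, with scores from 5.5 to 17.63 where listed.

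Windows of 100 kb were used to test such clusters, on the same scale as the baits. The window at 18800001 to 18900000 was lower in PA2 than in the *Hox*-negative populations of the same stage, with a log2 difference of -3.30 (SE 0.379, limma adjusted p = 7.46e-05) and mean summed scores of 0 and 46.28. It was the only 1 of 45 windows of the 7 baits to pass, with 0.0568% of all 79251 windows called and 4 of the 45, and 6.83% of all, under an unadjusted p of 0.05. The call was lost when only scores of 10 or more were kept (-1.34, adjusted p = 1). In the added test of single pairs the 4221 bp fragment at 18869090 did not pass (-3.04, limma adjusted p = 0.078), and 0 of 82 pairs were called, with 0.0173% of all pairs called and 13 of the 82, and 6.61% of all, under an unadjusted p of 0.05. It passed when any 1 of the PA2 or KO PA2 libraries was left out (adjusted p = 0.0262 to 0.0304), with the lone library of that population taken to vary like the others. The main bait was less sharply split. Its summed score over the same cluster was 0 and 5.14 in PA2, 0 and 16.27 in KO PA2, and 19.75 to 36.84 in the 6 *Hox*-negative libraries, and its window did not pass (-2.18, limma adjusted p = 0.196).

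In pinna the contact at the *Meis1* gene end was listed again and a further cluster appeared beyond it. The latter (chr11:18745334-18760286, 8 fragments, 255 to 266 kb from the second bait) overlaps *Gm28401*. With the second bait its summed score was 77.58 and 104.8 in E12.5 pinna, then 34.82 and 76.9 in E14.5 pinna, and with the main bait it was 40.88, 60.83, 5.58 and 26.36. It was 0 in all 10 E10.5 libraries with both baits. Replicate 1 of the pinna libraries listed 134063 (E12.5) and 145549 (E14.5) same-chromosome pairs, and replicate 2 listed 186248 and 182088. The PA2 libraries listed 140559 and 145035. Pinna replicate 2 also had the higher cluster score of its stage with both baits. Cut to equal numbers of pairs per library, the lists gave 5 in place of 6 window calls in the pinna test below. The part of list size in the scores themselves was not tested.

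The test of both pinna stages against E10.5 PA2 was added after these values were seen, and shares the PA2 libraries with the comparison above. Of 45 windows of the 7 baits, 5 were higher in pinna and 1 lower, against 2.46% of all 79251 windows called. Of the 5, 4 met the filter of 4 libraries through the 4 pinna libraries alone and so had to differ, and the count is a description, with no p given for these. They were the window of the pinna cluster, which differed by 3.97 (SE 0.538) with the second and by 2.67 (SE 0.546) with the main *Meis1* bait, a *Meis2* window given below, and 17600001 to 17700000 with the second *Meis1* bait. The last had means of 33.26 in pinna and 2.61 in PA2, a difference of 2.32 (SE 0.586). It was listed in KO replicate 1 and PA2 replicate 1 too, and was not called without either PA2 or E12.5 pinna library or E14.5 pinna replicate 2, without both libraries with merged runs, with a filter of 2 libraries or with the number of listed pairs. The fifth, the gene-end window of the second *Meis1* bait, was also listed in all 6 *Hox*-negative libraries, and differed by 3.61 (SE 0.402, limma adjusted p = 9.17e-06). Among pairs, 2 of 82 were higher in pinna, both at the gene end with the second bait, with 0.143% of all pairs called. They were the fragment at 18869090 (3.36 on the asinh scale of the score, SE 0.535, limma adjusted p = 0.0186) and that at 18873584 (3.19, SE 0.577, limma adjusted p = 0.0456). Both were lost with scores of 10 or more only (adjusted p = 0.0918 and 0.201). The latter was lost also with equal numbers of pairs per library (0.071), with the replicate number as a block (0.0621), on the log2 scale with unlisted pairs at 5 (0.0725), with quantile normalization (0.0546) and without both libraries with merged runs (0.0549). It was lost too, at adjusted p of 0.0503 to 0.0679, without either FNP or Mx library, Md replicate 1, PA2 replicate 1 or E12.5 pinna replicate 2.

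**Figure D3:**
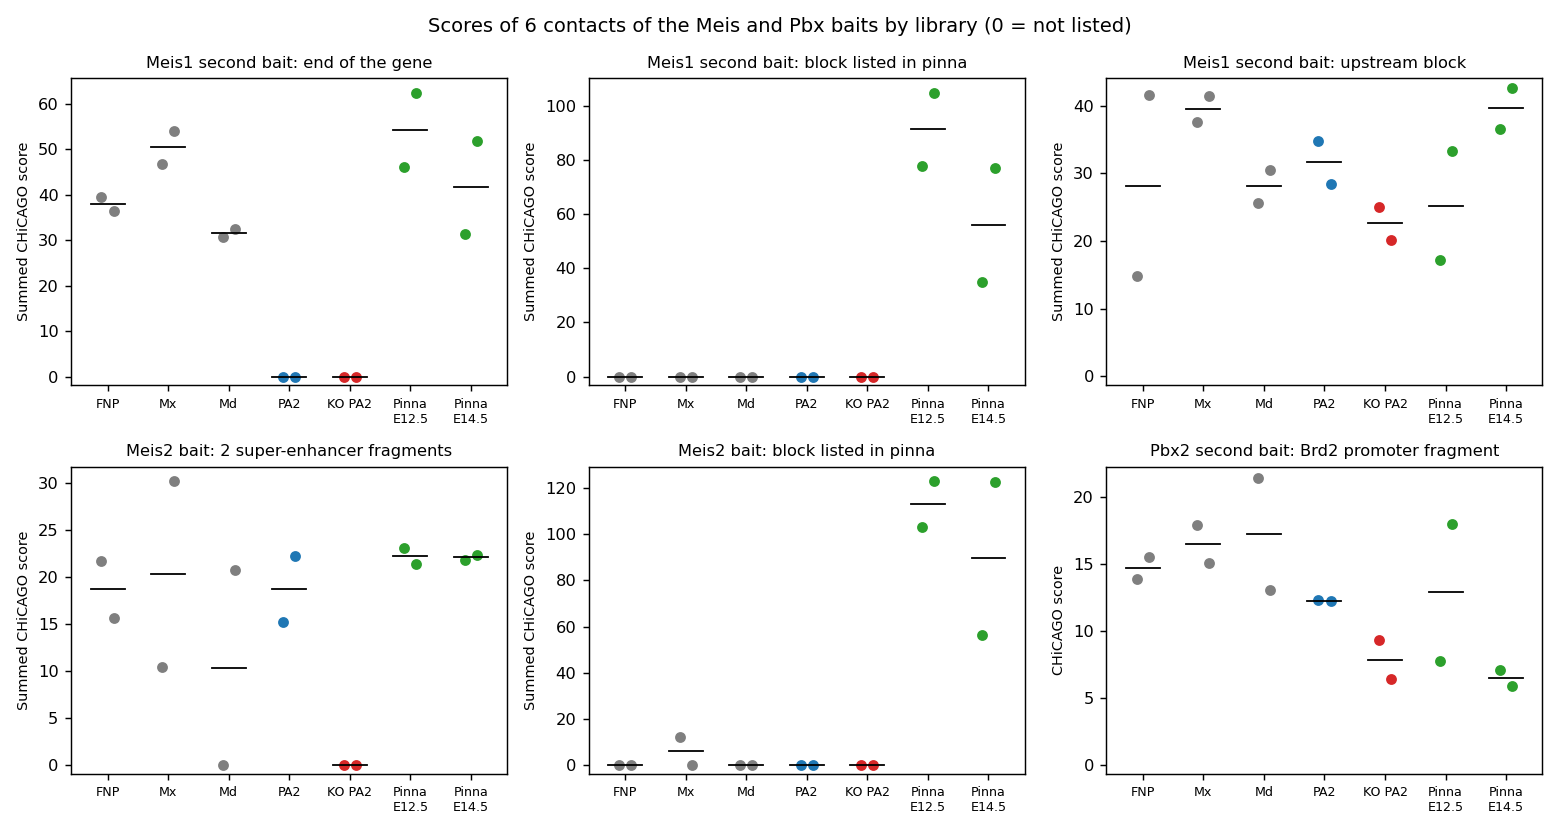
CHiCAGO scores of 6 contacts (y axis, summed where a contact spans several fragments, 0 = not listed) by population (x axis). Points are libraries and bars are means. The *Meis1* gene end is 0 in PA2 and KO PA2 and 30.81 or more elsewhere, the pinna clusters of *Meis1* and *Meis2* are high in pinna, and the 2 *Meis2* super-enhancer fragments are 0 in KO PA2.

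*Meis2*, the second Meis cofactor of the arches, reached a distant super-enhancer in nearly every library. The window at chr2:114600001-114700000, about 1440 kb downstream, was listed in 13 of 14 libraries, and its super-enhancer lies within *Dph6*. Its farthest pair found in at least 7 libraries was the fragment 114617245 to 114622006, at 1443 kb. The super-enhancer fragment shown above and its neighbour had together 21.74 and 15.67 in FNP, 10.49 and 30.17 in Mx, 0 and 20.7 in Md, and 15.23 and 22.2 in PA2. They had 23.05 and 21.38 in E12.5 pinna, 21.8 and 22.39 in E14.5 pinna, and 0 in both KO PA2 libraries. Both were listed in 10 of 12 wild-type libraries, 1 of them in Mx replicate 1, and neither in Md replicate 1 or in KO. They are 2 of 9 fragments listed within that super-enhancer, over all of which the score was 0 and 13.82 in KO, and 16.13 to 62.26 in the wild-type libraries.

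A pinna cluster stood out for *Meis2* too. It held 6 fragments (chr2:115508770-115530548), 533.3 to 550.9 kb from the bait, and overlapped *3110099E03Rik*. Its summed score was 103.1 and 122.8 in E12.5 pinna, then 56.49 and 122.5 in E14.5 pinna. In the 10 E10.5 libraries it was 12.04 in Mx replicate 1 and 0 in the other 9. All 6 fragments were listed in all 4 pinna libraries, with a highest score of 30.35 at the fragment 115526054 to 115527049, and the printed fragment next to it scored 17.2, 22.56, 7.17 and 20.07 in the same order. In the added test the window at 115500001 to 115600000 differed between pinna and PA2 by 4.40 (SE 0.563), with 4 of the 5 libraries that listed it from pinna. In the *Hoxa2*-expressing against *Hox*-negative comparison, where PA2 shares a group with pinna, it did not pass (2.68, limma adjusted p = 0.187), but it did without PA2 replicate 1 or 2, again through the pinna libraries.

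**Figure D4:**
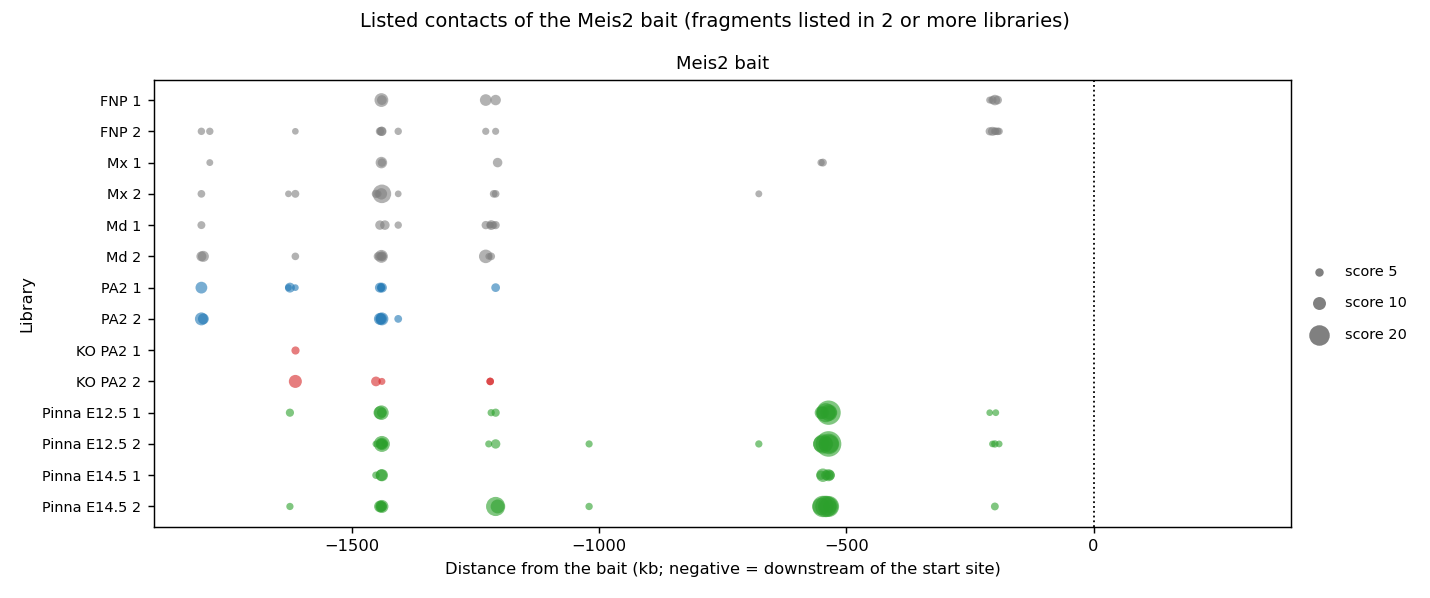
Listed contacts of the *Meis2* bait, with distance from the bait in kb on the x axis (negative = downstream) and the 14 libraries on the y axis. Each point is a fragment listed in 2 or more libraries and its area grows with the score. The cluster near 1440 kb downstream recurs in wild-type libraries, and that 533.3 to 550.9 kb downstream is dense in the 4 pinna libraries.

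The end of the *Meis2* gene was listed mainly in the frontonasal process. The window at chr2:115800001-115900000 summed to 28.56 and 37.91 in FNP, to 0 in the other 8 E10.5 libraries, to 10.24 and 16.05 in E12.5 pinna and to 0 and 6.32 in E14.5 pinna. This window and the next one were chosen after their values were seen, and no test of FNP alone was run. The share of all windows with such a pattern was not counted. A window listed in E10.5 libraries but in no pinna library was that at 114200001 to 114300000, with 10.81 and 21.96 in PA2, 0 in KO PA2 and 0 to 23.68 in the *Hox*-negative libraries.

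In E10.5 PA2 without *Hoxa2*, 1 of 82 tested pairs of the 7 baits was lower and none higher, with 1.29% of all 161463 pairs called. Of those calls over all pairs, 2007 were lower in KO and 72 were higher, beside the smaller number of listed pairs in KO. With lists cut to equal numbers of top-scoring same-chromosome pairs, 1 pair of the 7 baits was again called. The part of the smaller KO lists in the results here was not tested further. The called pair joined the main *Meis1* bait with the upstream fragment 19759558 to 19762588, 741.9 kb away. It scored 9.31 and 11.6 in PA2, 0 and 0 in KO PA2, and 8.52 to 22.26 in the 10 other libraries. The difference on the asinh scale was -3.04 (SE 0.348, limma adjusted p = 0.000217), and the call was lost with scores of 10 or more only (adjusted p = 0.604) and on a log2 scale with unlisted pairs at 5 (adjusted p = 0.169). The adjoining fragments stayed listed in KO, at 7.22 and 10.11 for that starting at 19762589 and 10.3 and 12.7 for that starting at 19763315. With the second bait the called fragment scored 13.94 and 6.15 in PA2, and 5.19 and 0 in KO, and it did not pass. It was called without KO replicate 1, where the KO arm is 1 library at 0 that is taken to vary like the others (-2.92).

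The total of *Meis2* was lower in both KO libraries than in PA2, and the difference did not pass. Its summed score was 66.67 and 73.77 in PA2 and 12.46 and 38.22 in KO, below every wild-type library, of which the lowest had 59.03. The log2 difference was -1.28 (SE 0.456, limma adjusted p = 0.242), and it was -0.66 without KO replicate 1 and -1.90 without KO replicate 2. The number of listed *Meis2* pairs on its chromosome was 9 and 8 in PA2, and 2 and 5 in KO. Of the 7 baits limma called 0 in KO against PA2, with 0.7% of all 21991 baits called, and *Meis2* alone had an unadjusted p under 0.05, as had 11.2% of all baits. The median log2 difference of the 7 was -0.30, against -0.03 over all baits.

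Windows gave no call in KO either. Limma called 0 of 45, with 0.575% of all 79251 windows called, and 3 had an unadjusted p under 0.05, as had 9895 of all windows. The *Meis2* super-enhancer window had 23.9 and 39.48 in PA2 and 0 and 13.82 in KO, a log2 difference of -1.81 (SE 0.561, limma adjusted p = 0.168). Without KO replicate 2 it passed (-2.74, SE 0.615, adjusted p = 0.0448), with KO replicate 1 taken to vary like the other libraries. That at 114200001 to 114300000 differed by -1.97 (SE 0.688, limma adjusted p = 0.237). In it, the *Meis2* pair at 114257156 to 114259486 passed only on the log2 scale with unlisted pairs at 5 (-1.205, limma adjusted p = 0.0493). Within the super-enhancer, the printed *Meis2* fragment scored 6.57 and 9.91 in PA2, 0 in both KO libraries, 0 in Md replicate 1 and 7.79 to 14.36 in the other wild-type libraries. As a pair it did not pass (-2.79, limma adjusted p = 0.156), but it did without Md replicate 1 (adjusted p = 0.00446), the only wild-type library that lacked it, and without Md replicate 2 (0.0203). The gene-end contact of the second *Meis1* bait, unlisted in wild-type PA2, was unlisted in KO as well.

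Both windows that passed between *Hoxa2*-expressing and *Hox*-negative libraries belonged to the second *Meis1* bait. They were 2 of 43 windows tested, with 1.75% of all 73338 windows called. The window at 17600001 to 17700000 had means of 23.04 in *Hoxa2*-expressing and 0 in *Hox*-negative libraries (log2 difference 2.10, SE 0.472). It met the filter through the *Hoxa2*-expressing libraries alone, so that no p is given, and it was not called without both libraries with merged runs. That at 18000001 to 18100000 had 19.54 and 2.983 (1.66, SE 0.448, limma adjusted p = 0.0394), and was lost with equal numbers of pairs per library (adjusted p = 0.239), without both libraries with merged runs (0.158), with the number of listed pairs (0.115) and with no centring (0.0514). It was also lost, at adjusted p of 0.0624 to 0.116, without either FNP or E14.5 pinna library, Mx replicate 1, Md replicate 1 or E12.5 pinna replicate 2. Without PA2 replicate 1 or 2 the windows called rose from 2 to 6 and 5, and those added included both pinna clusters. Of single pairs, 0 of 169 passed by limma, with 0.0807% of all 286137 called, and 31 had an unadjusted p under 0.05, as had 6.65% of all pairs. Tissue and stage differ together here, since 4 of the 6 *Hoxa2*-expressing libraries are later than E10.5.

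*Meis3*, the third Meis gene, had many contacts that did not recur. Of its 98 fragments, 83 were listed in 1 library and none in all 14, and 39 were baits of other promoters. Its most frequent contacts lay close by, led by the *Gm26473* bait at 58.91 kb, listed in 8 libraries with scores of 5.68 to 9.02. The farthest pair found in 7 libraries, within *C5ar1*, was 70.56 kb away. The next, a bait of *Ccdc9* and *Inafm1* at 92.84 kb, was listed in 4 libraries. The window around them (chr7:16200001-16300000) summed to 11.54 to 30.88 in the 6 *Hox*-negative libraries, 21.51 and 17.3 in PA2 and 7.44 and 12.14 in KO. In pinna it was 0 and 5.83 at E12.5 and 0 in both E14.5 libraries, all below PA2. The added comparison of pinna with PA2 gave -1.99 (SE 0.515, limma adjusted p = 0.0358), which was lost with equal numbers of pairs per library (adjusted p = 0.117). It was lost too without PA2 replicate 1 or 2 (0.285 and 0.198), E12.5 pinna replicate 1 (0.0838), E14.5 pinna replicate 1 or 2 (0.0502 and 0.0671) or KO replicate 2 (0.0508).

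*Pbx2*, which lies in the major histocompatibility region, contacted other promoters in that region. A fragment with start sites of *Brd2*, a bromodomain protein of chromatin, and *H2-DMa*, an antigen-loading protein, was its leading partner (chr17:34117600-34125398). With the second bait, 474.7 kb away, this fragment was listed in all 14 libraries, with scores between 5.87 and 21.46. With the main bait it was listed in 13, and E12.5 pinna replicate 2 was the exception. The second bait's scores for this pair were 12.3 and 12.26 in PA2, 9.32 and 6.42 in KO PA2, 7.8 and 18 in E12.5 pinna, and 7.12 and 5.87 in E14.5 pinna. Of the *Pbx2* fragments, 20 of 41 and 21 of 35 were baits of other promoters. The main bait's next pairs were a fragment with start sites of *C2* and *Zbtb12*, 304 kb downstream and listed in 9 libraries, and a *Brd2* fragment at 474.7 kb, listed in 6. Those of the second bait were the *H2-DMb2* bait, listed in 5, and a bait with start sites of *Ring1* and *Rxrb* among others, listed in 4. No *Pbx2* bait, window or pair passed in any fit as reported. Under other settings pairs of the main bait did. That with the *H2-DMb2* bait passed in KO on the log2 scale with unlisted pairs at 5 (0.64, limma adjusted p = 0.0421). That at 35045296 to 35045940 passed in *Hoxa2*-expressing against *Hox*-negative with 7 condition means (-0.79, limma adjusted p = 0.0101). A single fragment within the 100 kb window at 26500001 to 26600000 was listed with the main bait in the KO libraries alone (5.2 and 5.19). It was called in KO with a filter of 2 libraries (2.35), which it met through KO alone, so that no p is given. The second bait's total was 49.42 and 31.36 in E10.5 PA2 and 12.91 and 18 in E12.5 pinna, a log2 difference of -1.40 that did not pass (SE 0.524, limma adjusted p = 0.248).

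*Pbx3* had few contacts. Its bait had 0 to 7 listed pairs per library, and no fragment was listed in 7 or more libraries. The most frequent, a fragment with a start site of *Gm13404* 400.6 kb away, was listed in 4 libraries (both Mx, 1 PA2 and 1 E14.5 pinna), at 5.4 to 7.86. The next, on chromosome 5 within *Dnajb6* and on its own chromosome 370.5 kb away, were listed in 2 libraries each. The summed score of the bait ran from 0 in FNP replicate 1 and KO replicate 1 to 41.29 in E14.5 pinna replicate 2. Its log2 difference was 0.84 in *Hoxa2*-expressing against *Hox*-negative libraries (SE 0.456, limma adjusted p = 0.419) and 1.11 in PA2 against *Hox*-negative at E10.5 (SE 0.672, limma adjusted p = 0.891). With equal numbers of pairs per library both turned in sign (-0.016 and -0.12). No *Pbx3* bait, window or pair passed in any comparison.

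The other genes of this pathway were 18 TALE, Pbx-binding, anterior *Hox* and *Hoxa2* target genes, of which 17 had a tested bait. They gave 21 entries of a gene with a bait, and the bait at chr2:74709279-74714061 was entered for both *Hoxd3* and *Hoxd4*. In *Hoxa2*-expressing against *Hox*-negative libraries 0 of 21 were higher and 2 lower by limma, *Hoxb2* (-1.98 on the log2 scale of bait strength, adjusted p = 0.00103) and a *Hoxb3* bait (-1.67, adjusted p = 0.0321). Of all baits 0.863% were called there. *Hoxa2* itself did not pass (0.82, limma adjusted p = 0.076). The same *Hoxb3* bait was lower at E14.5 than at E12.5 (-2.20, limma adjusted p = 0.0252), the only call of 21 there, with 0.132% of all baits called. In the remaining 3 comparisons limma called 0 of the 21. Of all baits it called 0% at E10.5 in PA2, 0.7% in KO and 0.655% in E12.5 pinna against PA2. Unadjusted p under 0.05 was reached by 6 baits at E10.5 in PA2, 1 in KO and 5 in E12.5 pinna against PA2, beside 5.88%, 11.2% and 12.1% of all baits.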

How the data were processed

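PCHi-C was measured in 14 libraries, 2 for each of 7 populations. The authors mapped reads to GRCm38/mm10 with HiCUP, scored pairs of HindIII fragments with CHiCAGO, and deposited, for each library, the pairs with scores of 5 or more. The submitters' processing notes name bcl2fastq 2.17. A CHiCAGO score depends on its library's depth, which is unknown, so populations were compared by the spread between libraries. Nothing at hand ties libraries to litters, and p-values measure that spread. The number of listed pairs stands in for depth.

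Baits were assigned by GENCODE vM21 start sites. Unlisted pairs were set to 0. Pairs between chromosomes were kept in the pair fits and left out of the bait and window fits. limma (lmFit, eBayes with trend and robust) was fitted over all features and adjusted by Benjamini-Hochberg (threshold 0.05): pairs on asinh of the score, and 100 kb windows and baits on log2(summed score + 5), centred per library. Pairs had to be listed in 2 of 12 libraries for *Hoxa2*-expressing against *Hox*-negative, otherwise all features in 4. That comparison used 2 group means of the 12 wild-type libraries and counted all libraries as independent. Its error therefore holds differences between the populations of a group beside the spread between libraries. The other fits used all 14 libraries and 7 means. Where a left-out library leaves 1 in a population, that one is taken to vary like the others. The steps were also run on each feature's values shuffled over the libraries, with a shift added to some features, and the outcome is not given here. Alternatives were score limits, equal pair numbers, filters, scales, normalization, window size, a replicate block, and libraries left out.

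The genes and lists were chosen with earlier results of these data known. The text names all calls, the 3 highest pairs of each bait, its farthest pair in at least 7 libraries, and clusters chosen after their values were seen. Each cluster spans the fragments of a window listed in at least 3, 7 or 10 libraries. The *Meis2* windows starting at 115800001 and 114200001 were also named after their values were seen. The fits of pinna against PA2 for windows and pairs, and of PA2 against *Hox*-negative for pairs, were added after the values were seen. The super-enhancer list at hand was partial and used only to annotate. One planned value of a bait with a similar profile is not reported here. Python 3.11.15, pandas 2.3.3, NumPy 2.4.6, R 4.3.3, limma 3.58.1 and matplotlib 3.10.9 were used.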

Additional observations from a re-analysis of the deposited data

Results flagged for a closer look

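The second *Meis1* bait was also listed with the *Wnt1* bait on another chromosome, a kind of pair that the bait and window comparisons leave out. Fits of single pairs kept such pairs, and this one was not called in them as reported. It scored 14.48 and 22.9 in FNP, 9.02 in Mx replicate 2 and 9.34 in Md replicate 2, and was unlisted in the other 10 libraries, both KO libraries among them. The main *Meis1* bait was listed with it in FNP replicate 2 (8.64) and Md replicate 2 (7.04). The same *Wnt1* bait listed 209 to 425 fragments of chromosome 11 in each wild-type library, which carry Wnt1::Cre, and 0 in KO. Their median position in a library was 6.419 to 6.68 Mb, while the second *Meis1* bait starts at 19011027. The part of the transgene in the *Meis1* listing was not tested. Dixon's test flagged 0 of the 14 groups of 6 libraries tested. Each population has 2 libraries, so a group of 6 mixes populations, and their differences can hide a library that stands apart.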

How the results depend on the processing

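No call of a bait, window or pair changed sign, but 20 of the 35 bait differences, none of them called, did so in at least 1 setting, for example -0.73 for *Pbx3* in KO, which ran from -1.85 to 0.38 with 1 library left out. With scores of 10 or more only, the baits had 198 same-chromosome listings in place of 984, and calls among them became 0 for pairs in KO (1 in the fit as reported), 1 for windows and 1 for baits in *Hoxa2*-expressing against *Hox*-negative (2 and 0), the bait being *Meis2* (2.32, limma adjusted p = 0.0372), 0 for windows at E10.5 in PA2 (1), 0 for baits in E12.5 pinna against PA2 (1) and 2 for windows in pinna against PA2 (6, with the gene-end window of the second *Meis1* bait and the *Meis2* pinna window kept), while the 2 pairs called in pinna became 2 others, those of *Meis2* at 115514010 and 115526054. Without both libraries with merged runs, the calls were 2 (pairs, KO), 0 (windows, *Hoxa2*-expressing), 0 (baits, E12.5 pinna), 1 (pairs, pinna) and 3 (windows, pinna). With the other filter (2 libraries in place of 4, or 4 in place of 2) they were 3 (pairs, KO), 5 (windows, *Hoxa2*-expressing), 5 (pairs, PA2 at E10.5) and 21 (pairs, pinna). On a log2 scale with unlisted pairs at 5 they were 2 (pairs, KO) and 6 (pairs, pinna). In *Hoxa2*-expressing against *Hox*-negative, 7 condition means gave 29 pairs and 6 windows, and equal pair numbers or no centring gave 1 window each. Equal pair numbers and quantile normalization each gave 1 pair in pinna, and the number of pairs in place of the score gave 0 baits for E12.5 pinna. Replicate numbers did not pair the samples (correlations of -0.089 to 0.136 over 21 pairs of populations, 2 of them over 0.1). With the replicate number as a block, 1 pair in place of 2 was called in pinna and no other number of calls moved by over 1.5 times. With each library left out in turn, calls ran from 1 to 2 for pairs in KO (2 without either Md library or KO replicate 1), 1 to 6 for windows in *Hoxa2*-expressing, 0 to 1 for windows in KO (1 without KO replicate 2), 0 to 1 for baits in E12.5 pinna, 0 to 1 for pairs in PA2 at E10.5, 1 to 3 for pairs in pinna, 2 to 6 for windows in pinna (2 or 3 without either PA2 or E12.5 library or E14.5 replicate 2), and stayed at 1 for windows in PA2 at E10.5. The causes were not tested. The gene-end window of the second *Meis1* bait in pinna against PA2 passed under all settings run for it. The pinna windows of both *Meis1* baits could not be fitted without any 1 pinna library, without both merged libraries or with scores of 10 or more, since they then fall below the filter. Contacts that scored under 5 could not be compared.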

Other observations

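Some baits of other genes had a strength profile over the 14 libraries like that of these genes, as a description over baits that share libraries. The closest were *Hapln1* (Pearson r = 0.919), *Csmd3* (0.916) and *Rrs1* (0.899) for *Meis2*, and *Dlg5* (0.925), *Gm10748* (0.908) and a bait of *Lgals1* and *Nol12* (0.891) for the second *Meis1* bait. For the main *Meis1* bait they were *Gm25773* (0.915), *Gm24918* (0.889) and *Zfp324* (0.883). For *Meis3* they were *Gm24793* (0.866), a bait of *Fgd6* and *Vezt* (0.847) and *Kcnip3* (0.834). For the main *Pbx2* bait they were *Ccnjl* (0.883), *Orm1* (0.835) and *Gm24036* (0.829), for the second *Asb13* (0.885) and a bait of *Acoxl* and *Bub1* (0.882), and for *Pbx3* they were *Madd* (0.818), *Olfr1040* (0.793) and *Gm25507* (0.789).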
